A study of Mus musculus with 60 samples.

Results

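The 4 transcripts described here were chosen as markers of neural differentiation, out of 117135 transcripts quantified in tailbuds of single mouse embryos. They were selected on their identifiers. The values by which these markers were chosen are not recorded, but the course of Fabp7 over the stages was known from the same libraries, so that course is given as a description. Earlier results of these libraries were known at the choice, so the p-values for genotype may not be independent of it either. ENSMUST00000020024 was given as Fabp7, ENSMUST00000049621 as Hes5, ENSMUST00000035608 as Olig2 and ENSMUST00000029587 as Neurog2. The tables of gene names at hand hold no transcript identifiers and match 0 of them, so these symbols were not checked and are written in brackets after the identifier. A necessary condition was met: each transcript, of 804, 1273, 2530 and 2227 bases in that order, is no longer than the RefSeq gene of its given symbol, which spans 3528, 1747, 3128 and 2904 bases.

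The tailbud is the posterior tip of the embryo, from which the spinal cord and the somites of the trunk and tail are laid down. Libraries came from 16 wild-type embryos and 11 mutants. The mutants are labelled MUT, and the series' design describes them as carrying K116R, an amino acid change in JARID2. That protein associates with Polycomb repressive complex 2, which methylates histone H3 on repressed genes. Zygosity, strain, litter and sex are not given in the sources used here. At 12, 13, 14 and 16 somites there were 4 wild-type embryos per stage, and 2, 2, 2 and 5 mutants. Every library was made from 1 embryo. The markers that would check the tissue label could not be looked up without gene names. Library totals ran from 20908470 to 27090684 estimated counts.

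As neural tissue leaves the tailbud, it passes from a progenitor state kept by FGF and Wnt signals to a patterned neural tube. Fabp7 encodes brain lipid-binding protein, a fatty acid-binding protein of neural progenitors and radial glia. Hes5 encodes a basic helix-loop-helix repressor that Notch signalling switches on through the DNA-binding protein RBPJ and that holds progenitors undifferentiated. Neurog2 encodes a proneural factor that drives progenitors to become neurons, and Olig2 a factor of motor neuron and oligodendrocyte progenitors.

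The 250 bases before the start of Fabp7 and of Hes5 are shown because both genes had a measurable level in every library and both windows hold the core of the motif bound by RBPJ, while their courses over the stages were unlike. They come from RefSeq's GRCm38.p6 table, which held an entry for all 4 symbols. Both lie on the plus strand, Fabp7 at chr10:57784673-57784922 and Hes5 at chr4:154960673-154960922. Capitals mark the core of the RBPJ motif, TGGGAA or its reverse complement TTCCCA.
Fabp7: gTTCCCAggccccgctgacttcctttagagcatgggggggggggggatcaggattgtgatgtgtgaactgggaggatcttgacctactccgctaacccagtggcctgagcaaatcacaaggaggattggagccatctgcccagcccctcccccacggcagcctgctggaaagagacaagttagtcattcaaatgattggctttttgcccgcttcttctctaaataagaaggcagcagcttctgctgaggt
Hes5: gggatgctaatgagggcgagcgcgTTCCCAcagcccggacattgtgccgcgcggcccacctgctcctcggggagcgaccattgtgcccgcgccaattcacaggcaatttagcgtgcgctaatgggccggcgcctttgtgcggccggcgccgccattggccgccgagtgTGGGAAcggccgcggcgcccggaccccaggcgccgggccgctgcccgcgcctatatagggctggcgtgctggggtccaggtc
The Hes5 window holds 2 matches, starting at -226 and -82 relative to the start, and the Fabp7 window 1, at -249. The Olig2 and Neurog2 windows hold 0. Among 32817 RefSeq windows of this length 21.6% hold at least 1 match on either strand, so a match is a description of the sequence and not of a binding site. Binding at these windows was not analysed here.

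Levels can be compared between transcripts in TPM, which is scaled by length. ENSMUST00000049621 (Hes5) had a median of 16.3 TPM over the 27 libraries, with a range of 4.61 to 43.4. ENSMUST00000020024 (Fabp7) had a median of 11.7 TPM and ran from 1.60 to 41.3. ENSMUST00000029587 (Neurog2) stood far lower, at a median of 0.0729 TPM and a highest value of 0.312. ENSMUST00000035608 (Olig2) was listed at 0 in all 27 libraries. Only Fabp7 and Hes5 were therefore present at a level that the depth could follow. Which cells of the tailbud carried these transcripts was not measured. In these bulk samples fewer cells of a type and less RNA per cell cannot be told apart.

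ENSMUST00000020024 (Fabp7) rose with somite number in both genotypes. In wild type it stood at 3.97, 1.79, 2.75 and 1.89 CPM (counts scaled to library size with TMM factors) in embryos 1 to 4 at 12 somites. At 13 somites the embryos had 4.88, 7.96, 7.63 and 4.88 CPM, all above the 12-somite embryos. At 14 somites they had 10.9, 7.92, 7.12 and 1.17 CPM. Embryo 4 of that stage was thus lower than every other wild-type embryo, including those of 12 somites, and rested on 37 counts against 204 to 315 in the other 3. At 16 somites the values were 12.9, 29.0, 22.9 and 24.5 CPM, above all younger wild-type embryos. Such separations of stages were not counted for the other transcripts. The mean went from 2.60 ± 1.01 CPM (SD, n = 4) at 12 somites to 22.3 ± 6.78 CPM (SD, n = 4) at 16, a ratio of 8.59.

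Mutants followed the same course for ENSMUST00000020024 (Fabp7). The values were 1.66 and 1.25 CPM at 12 somites, 3.71 and 2.54 at 13, and 6.82 and 4.56 at 14. No mutant range overlapped that of the stage before. At 16 somites the 5 mutants had 21.0, 14.0, 14.9, 16.8 and 25.6 CPM. The mean rose from 1.45 ± 0.296 CPM (SD, n = 2) at 12 somites to 18.5 ± 4.81 CPM (SD, n = 5) at 16, a ratio of 12.7. Ordered by mean, the 8 groups ran from mutants at 12 somites, through wild type at 12 and mutants at 13 and 14, to wild type at 13 and 14, mutants at 16 and wild type at 16. Neighbours in this order overlapped in range except at 3 steps, from mutants to wild type at 12 somites, from mutants at 13 to mutants at 14, and from wild type at 14 to mutants at 16. Ranges apart between stages or groups were not counted for the other transcripts, so these separations are descriptions.

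**Figure D1:**
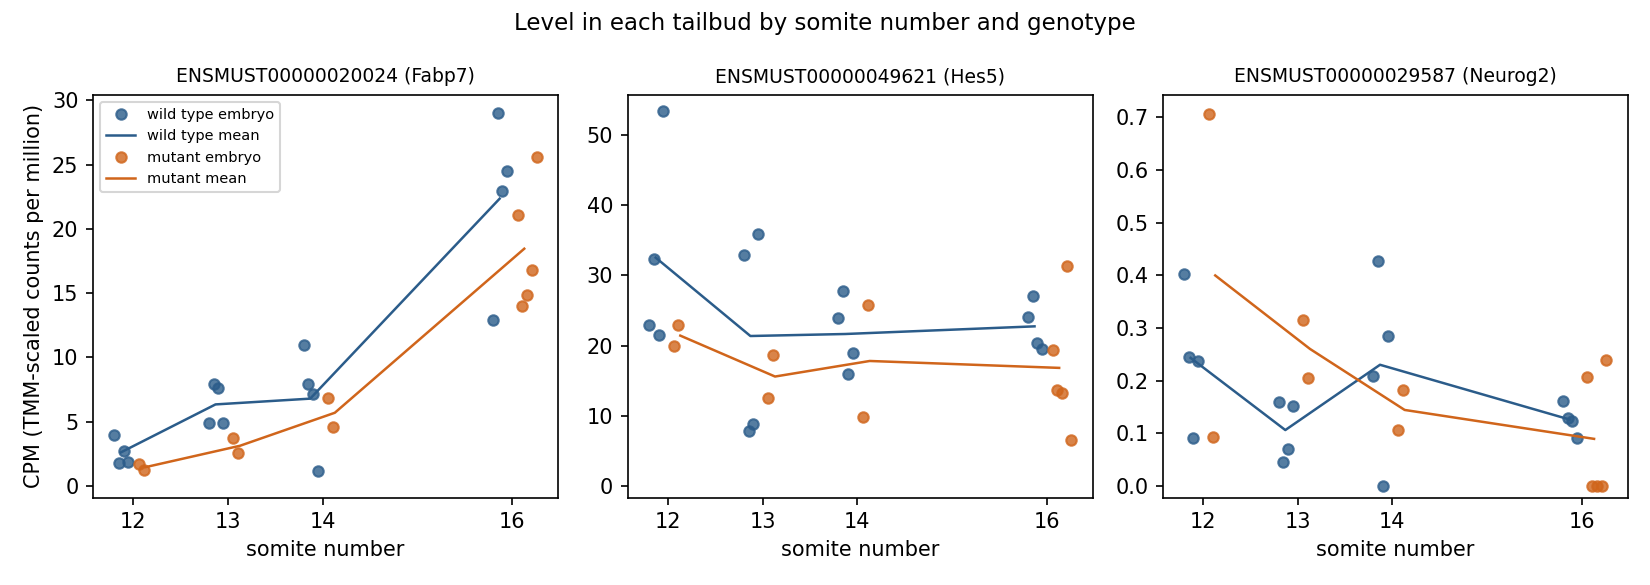
Points are single tailbuds in TMM-scaled CPM against somite number, blue for wild type and orange for mutants, and lines join the group means. The left panel (Fabp7) climbs from 1.25 to 3.97 CPM at 12 somites to 12.9 to 29.0 at 16, the middle panel (Hes5) shows wide scatter with no climb, and the right panel (Neurog2) stays under 0.71 CPM.

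Slopes per somite were fitted with edgeR's quasi-likelihood test in each genotype on its own embryos. The member may have been chosen for this trend, so its slopes and p-values describe the fit and are no independent evidence. In wild type ENSMUST00000020024 (Fabp7) gained 0.72 log2 units per somite (standard error 0.11), with a 95% interval of 0.48 to 0.95 (adjusted p 0.0338 over 36763 transcripts). In mutants it gained 0.90 (standard error 0.067), with an interval of 0.75 to 1.04 (adjusted p 0.00103 over 39151). The share of all tested transcripts with an adjusted p under 0.05 was 0.0218% in wild type and 0.0255% in mutants. In mutants no other transcript had a smaller p, and it ranked 8 by p in wild type. The wild-type call was the less stable. Its slope stayed between 0.68 and 0.77 when each of the 16 embryos was left out, but the adjusted p passed 0.05 in 11 of these fits: those without any of embryos 1 to 4 at 12 somites, 1 or 4 at 13, 2 or 3 at 14, and 2, 3 or 4 at 16. Over the 16 fits the adjusted p ran from 0.000671, without embryo 4 at 14 somites, to 0.239, without embryo 2 at 16. Mutant slopes stayed called in all 11 such fits, with adjusted p from 0.00169 to 0.0140.

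Within 12 to 14 somites alone the slope was 0.69 in wild type and 0.98 in mutants, with adjusted p of 0.836 and 0.825. The climb over the younger stages thus had a slope similar in size to that over all 4, on 12 and 6 embryos. Tested against each other in 1 model, the mutant slope minus the wild-type slope was 0.17, with a standard error of 0.15 and an interval of -0.14 to 0.48 (edgeR, unadjusted p 0.262, adjusted p 1). Of 45394 transcripts 0% were called for this difference, with 2080 at an unadjusted p under 0.05; DESeq2 called 111. Library totals also differed with stage, at 22897290 to 24868923 for 12 somites, 23674678 to 26481702 for 13, 25937663 to 27090684 for 14 and 20908470 to 24865712 for 16. Their part in the slopes was not tested.

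No slope over the stages passed the test for ENSMUST00000049621 (Hes5), in either genotype. Wild-type embryos 1 to 4 had 22.9, 32.3, 21.6 and 53.4 CPM at 12 somites. At 13 somites they had 32.9, 7.87, 8.84 and 35.8 CPM, a pair of high and a pair of low embryos with none between. The values were 24.0, 27.8, 15.9 and 18.9 CPM at 14 somites and 24.0, 27.1, 20.4 and 19.5 at 16. Mutants had 19.9 and 22.9 CPM at 12 somites, 12.5 and 18.7 at 13, 9.78 and 25.8 at 14, and 19.4, 13.6, 13.3, 31.3 and 6.54 at 16. The 8 group means lay between 15.6 and 32.5 CPM, and every neighbour in their order overlapped in range. Its slope in wild type was -0.11 log2 units a somite (standard error 0.100), with a 95% interval of -0.32 to 0.11 (edgeR adjusted p 1). It was -0.021 without wild-type embryo 4 at 12 somites, the highest value of that group, and -0.29 over 12 to 14 somites alone. In mutants it was -0.048 (standard error 0.11), with an interval of -0.29 to 0.19 (edgeR adjusted p 0.963), and ran from -0.15 without embryo 4 at 16 somites to 0.0073 without embryo 5. The difference between these slopes was 0.050, with an interval of -0.27 to 0.37 (edgeR adjusted p 1).

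Embryos of the same genotype and stage differed widely in Hes5, and in Fabp7 with 1 embryo far from its group. After removal of group means ENSMUST00000049621 (Hes5) had an SD of 0.71 log2 units, larger than that of 93.0% of 5766 transcripts with 0.5 to 2 times its mean CPM, whose median was 0.25. ENSMUST00000020024 (Fabp7) had one of 0.69, larger than 83.6% of 7151 transcripts of like level, whose median was 0.34. The Fabp7 value leans on wild-type embryo 4 at 14 somites, at 0.32 log2 CPM against 3.46, 3.00 and 2.85 in its group. The SD without that embryo was not computed. Estimated Hes5 counts were not whole numbers in most libraries, such as 569.775 in wild-type embryo 1 at 12 somites. Reads that match several transcripts are divided by estimation, and the part of this in the Hes5 values was not tested.

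Both measurable transcripts had lower means in mutants at every stage, and neither difference passed the test over all transcripts. ENSMUST00000020024 (Fabp7) had a mutant mean of 0.559, 0.493, 0.838 and 0.826 times that of wild type at 12, 13, 14 and 16 somites. Both mutants lay below all 4 wild-type embryos at 12 and at 13 somites, while the ranges overlapped at 14 and 16. The share of all transcripts with ranges apart at these stages was not computed, so the separation is a description. Over all stages, 9 of 11 mutants were below the wild-type mean of their stage, a count that was not made for the other transcripts. With stage as a factor the log2 fold change was -0.53, with a standard error of 0.24 and a 95% interval of -1.03 to -0.037 (edgeR, unadjusted p 0.0363, adjusted p 0.622 over 45394 transcripts). Without wild-type embryo 4 at 14 somites it was -0.60, with an unadjusted p of 0.00182 and an adjusted p of 0.311 (edgeR). That embryo was singled out after its value was seen, and its fit gave the lowest adjusted p of those without single embryos. Adjusted p ran from 0.311 to 0.776 over the fits that left out single embryos and from 0.252 to 0.985 over the other alternatives. Without stage in the model it was 0.11, since 5 of the 11 mutants had 16 somites.

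ENSMUST00000049621 (Hes5) had mutant means of 0.658, 0.730, 0.822 and 0.740 times those of wild type in the same order, and 9 of 11 mutants were below the wild-type mean of their stage. At 16 somites 4 of the 5 mutants lay below all wild-type embryos and the fifth lay above them all. Neither of these counts was made for the other transcripts. The log2 fold change over all stages was -0.44, with a standard error of 0.25 and an interval of -0.96 to 0.075 (edgeR, unadjusted p 0.0905, adjusted p 0.731). For this comparison 0.0154% of transcripts were called, and the median log2 fold change of all 45394 was -0.012. None of the 3 members tested was among those called.

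At the single stages the log2 fold change of ENSMUST00000020024 (Fabp7) was -0.83, -1.02, -0.25 and -0.28 from 12 to 16 somites, with standard errors of 0.55, 0.54, 0.52 and 0.39. For ENSMUST00000049621 (Hes5) it was -0.60, -0.46, -0.28 and -0.43, with standard errors of 0.58, 0.58, 0.58 and 0.44. All 8 values were below 0, but all 8 intervals included 0 and no adjusted p was under 0.963. The median change of all tested transcripts was -0.0090, -0.015, -0.020 and 0 at these stages. How many transcripts were below 0 at every stage was not counted. The transcripts called at these stages made up 0%, 0.00661%, 0.00661% and 0% of those tested. At 12 and 16 somites, where edgeR called 0, the transcripts at an unadjusted p under 0.05 numbered 1740 and 2784, and DESeq2 called 281 and 253. A test of whether the genotype effect differed between stages gave an unadjusted p of 0.605 for Fabp7 and 0.983 for Hes5 (edgeR, adjusted p 1 for both), with 0.00661% of transcripts called.

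Single embryos moved most of these stage values, and where a mutant of 12, 13 or 14 somites is left out, the lone mutant is assumed to vary like the other groups. At 14 somites the Fabp7 change turned to 0.069 without wild-type embryo 1, and was -0.61 without wild-type embryo 4, -0.58 without mutant embryo 1 and -0.012 without mutant embryo 2. The Hes5 change there was 0.25 without mutant embryo 1, -1.16 without mutant embryo 2 and -0.14 without wild-type embryo 2. At 12 somites Fabp7 was -0.55 without wild-type embryo 1, and Hes5 was -0.26 without wild-type embryo 4. At 13 somites Hes5 was -0.086 without wild-type embryo 4, -0.17 without wild-type embryo 1, -0.73 without wild-type embryo 2 and -0.77 without mutant embryo 2. At 16 somites Fabp7 was -0.12 without wild-type embryo 2 and -0.47 without wild-type embryo 1, and Hes5 was -0.22 without mutant embryo 5 and -0.78 without mutant embryo 4. The order of the stages also depended on the tool for Hes5, whose change was largest in size at 16 somites with limma voom, at -0.64.

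**Figure D2:**
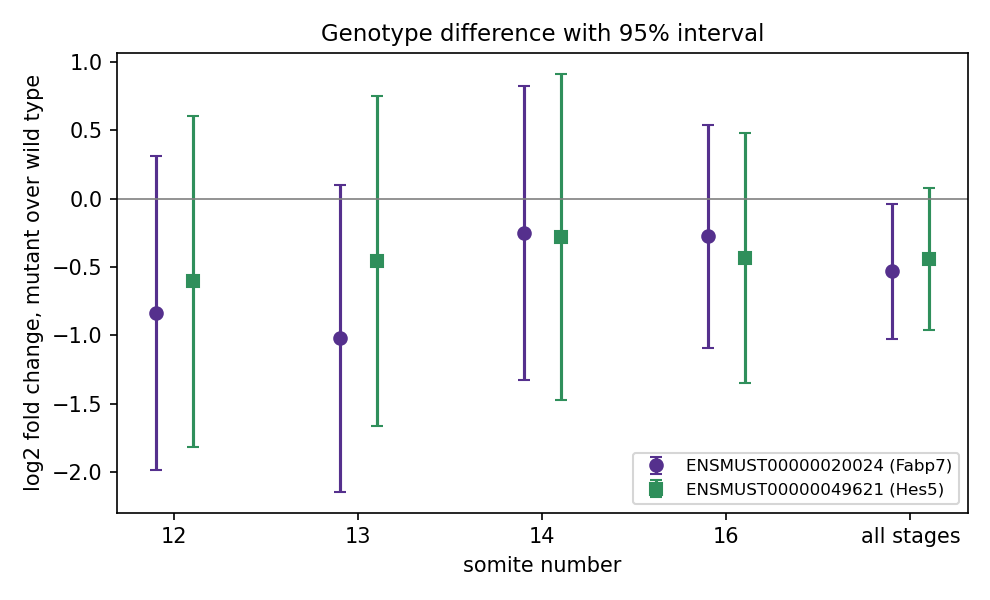
Log2 fold change of mutant over wild type at each somite number and over all stages, for Fabp7 (circles) and Hes5 (squares), with bars for the 95% interval of edgeR's fit. All 10 estimates are below 0, and the bar of Fabp7 over all stages, from -1.03 to -0.037, is the only one that does not cross 0.

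ENSMUST00000029587 (Neurog2) was near the limit of detection. It had 10, 6, 2 and 6 counts in wild-type embryos 1 to 4 at 12 somites, 4, 1, 2 and 4 at 13, 6, 11, 0 and 9 at 14, and 4, 3, 3 and 2 at 16. Mutants had 17 and 2 counts at 12 somites, 8 and 5 at 13, 3 and 5 at 14, and 4, 0, 0, 0 and 5 at 16. The groups overlapped at 12 and 14 somites, both mutants were above all wild-type embryos at 13, and at 16 somites 3 mutants lay below and 2 above all wild-type embryos in CPM. How many other transcripts were separated in this way was not counted. In 12 of 27 libraries the count was 3 or fewer. The transcript entered the fits of both genotypes together, where 3 libraries had at least 10 counts. It did not enter the main slope fits of either genotype alone, only some of the alternatives. The log2 fold change over all stages was 0.16 with an interval of -1.17 to 1.49 (edgeR adjusted p 0.987), so no difference was detectable with these counts, in either direction. The difference in slope was -0.36, with an interval of -1.16 to 0.43 (edgeR adjusted p 1).

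ENSMUST00000035608 (Olig2) had 0 counts in all 16 wild-type and all 11 mutant libraries. A count of 0 allows up to 3 counts, which is 0.111 to 0.143 CPM depending on the library and covers counting error only. Reads that match several transcripts are divided by estimation, so a listed 0 can also arise where reads were given to another transcript; this was not tested. No genotype or stage comparison could be made for it.

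No pair of members had a correlation between embryos of a group that passed the test. Over the 27 embryos, with group means of log2 CPM removed, ENSMUST00000020024 (Fabp7) and ENSMUST00000049621 (Hes5) had a Pearson r of -0.28 (permutation p 0.0816, adjusted over 3 pairs 0.245) and a Spearman rho of -0.40 (permutation p 0.0570, adjusted 0.171), two-sided. The r was -0.22 in the 16 wild-type embryos and -0.60 in the 11 mutants. It ran from -0.56, without wild-type embryo 4 at 14 somites, to -0.22 over the fits that left out single embryos, and was -0.54 without the 2 embryos farthest from the median in Fabp7. With the mean of each embryo number subtracted as well, r was -0.047. Mutant embryo 5 at 16 somites, the only embryo with that number, then had no deviation left. On log2(TPM + 1) r was -0.38, with an unadjusted permutation p under 0.05. The size of r thus changed with this subtraction, with the scale and with single embryos left out, while its sign did not.

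For Fabp7 and Neurog2 r was 0.030 (permutation p 0.922, adjusted 0.922), made up of -0.22 in wild type and 0.73 in mutants. For Hes5 and Neurog2 it was 0.11 (permutation p 0.597, adjusted 0.895), made up of 0.50 in wild type and -0.31 in mutants. Neither contrast between the genotypes was tested, and most Neurog2 values rest on fewer than 10 counts.

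**Figure D3:**
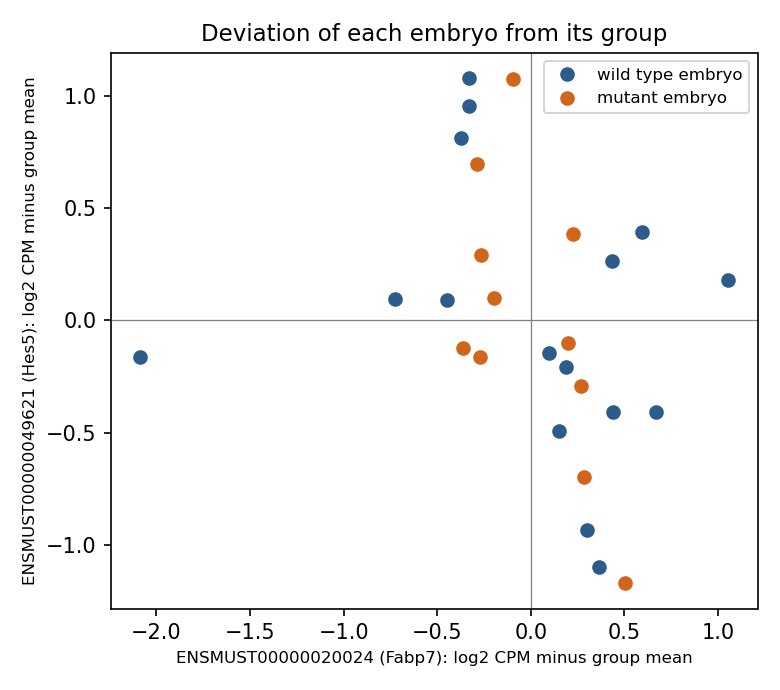
Each point is 1 tailbud, placed by how far its log2 CPM lay from the mean of its genotype and stage for Fabp7 (horizontal) and Hes5 (vertical), blue for wild type and orange for mutants. The 27 points lean downwards to the right with an r of -0.28; the point far to the left is wild-type embryo 4 at 14 somites.

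Across all 27 embryos and both genotypes, ENSMUST00000020024 (Fabp7) had close matches among other transcripts. Of 24396 whose mean reached 1 CPM, 20 had an r of at least 0.8 with Fabp7 and 7 had one of -0.8 or below, the extremes being 0.937 and -0.877. For Hes5 0 transcripts passed either bound, and the highest r was 0.661 and the lowest -0.642. By the rule set for naming, which used the mean standardised level of the 3 members with any counts, ENSMUST00000025295 (r 0.735) and ENSMUST00000114594 (r 0.661) were most alike, and ENSMUST00000112797 (r -0.665) and ENSMUST00000019050 (r -0.634) least. These correlations over embryos that differ in stage are descriptions, without a test.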

How the data were processed

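Of 60 samples in the series, the 27 tailbud RNA libraries were analysed; the 33 stem cell chromatin libraries are not analysed here. Titles gave each library's genotype, stage and embryo number. Per the file headers, the authors deposited for each library estimated counts (NumReads), TPM and effective lengths per transcript. The submitters' processing notes list Salmon 1.5.2 and Trim Galore 0.5.0; the annotation release, strandedness and bias correction are not given in the sources used here. The deposited TPM values are the authors' counts per effective length, scaled to the same total in every library.

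Estimated counts were rounded and fitted per transcript in R 4.3.3 with edgeR 4.0.16 (filterByExpr with the 8 groups, TMM factors, glmQLFit and glmQLFTest). P-values were adjusted by Benjamini-Hochberg over all transcripts tested, and those under 0.05 called. Standard errors were derived from the fitted change and its F statistic. Log2 CPM used a prior count of 2. Correlations had 100000 two-sided permutations within groups, and were adjusted over 3 pairs, since ENSMUST00000035608 (Olig2) is 0 throughout. The replicates are separate embryos. The members and lists were chosen with earlier results of these data known. Lists of Notch, neural tube, neurogenesis, radial glia and tissue marker genes, given by symbol, could not be paired with transcripts and were not used. Beside the members, the transcripts named are, where the mean reached 1 CPM, the 2 highest and 2 lowest in Pearson r with the mean z-score of the members, again without Olig2.

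Alternatives were DESeq2 1.42.0, limma 3.58.1 (voom with quality weights, or log2 of TPM with a pseudocount of 1), other scaling, filters and treatments of stage, an effective length offset, a block for embryo number and fits without each embryo. The fits were also run on simulated counts with known changes, made only in transcripts of at least 1 CPM. The simulated genotype change was larger than those reported here over all stages. That run therefore does not cover a transcript as low as Neurog2 or changes as small as these, and its outcome is not given here. Figures used Python 3.11.15 and matplotlib 3.10.9.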

Additional observations from a re-analysis of the deposited data

How the results depend on the processing

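The genotype change over all stages kept its sign and stayed uncalled under all 13 alternatives for Hes5 (-0.55 to -0.39) and under 12 of 13 for Fabp7; without a stage term Fabp7 reversed to 0.107. Leaving out single embryos gave -0.61 to -0.45 for Fabp7 and -0.56 to -0.36 for Hes5. For Neurog2 it reversed to -0.117 with limma voom with quality weights and to -0.640 with the replicate block, and ran from -0.16 to 0.29 without single embryos. The Fabp7 slope in wild type was no longer called with the replicate block (0.728, adjusted p 0.0837), without 16 somites (0.693) or for 16 against 12 somites (0.775), and ran from 0.68 to 0.77 without single embryos. In mutants it was no longer called without 16 somites (0.981) or for 16 against 12 somites (0.917); single embryos left out gave 0.86 to 0.92. The Hes5 slope in mutants ran from -0.15 to 0.0073 without single embryos. The difference of slopes for Hes5 reversed to -0.0473 with limma voom with quality weights and -0.0311 with limma on log2(TPM + 1), and ran from -0.048 to 0.11 without single embryos. Single-stage changes at 14 somites ran from -0.61 to 0.069 for Fabp7 and from -1.16 to 0.25 for Hes5. The correlation between Fabp7 and Hes5 across embryos was -0.380 on log2(TPM + 1), with a permutation p of 0.0175. It was -0.047 with the mean of each embryo number subtracted. That of Fabp7 with Neurog2 reversed to -0.00542 on log2(TPM + 1) and to -0.0862 with that subtraction, and ran from -0.046 to 0.28 without single embryos. The cause was not tested.

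Same-numbered embryos of different groups did not deviate together (median r 0.0088 over 76 pairs, 4 of them over 0.1; 3 of 27 embryos correlated best with their own number). The block left 1 call for genotype and 1 for the mutant slope, against 7 and 10. Without wild-type embryo 4 at 14 and mutant embryo 1 at 16 somites, chosen after seeing the data, the Fabp7 genotype change was -0.64 (edgeR adjusted p 0.252) and 32 transcripts were called. Calls for genotype, 7 in the report, numbered 189 with DESeq2, 42 with limma voom, 49 with limma on TPM, 3 with no filter, 27 with a mean of 1 CPM, 4 with a numeric somite term, 15 with none, and 0 without or with only 16 somites. For the wild-type slope, 8, they numbered 42 with DESeq2, 18 with limma voom, 13 without the 2 embryos, 3 for 16 against 12 and 0 without 16; for the mutant slope, 10, 152 with DESeq2, 5 with limma on TPM, 1 for 16 against 12 and 0 without 16. DESeq2 called 212 at 13 and 174 at 14 somites, against 3 and 3. Without single embryos genotype calls numbered 1 to 25. Depth limits Neurog2.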
